A study of Mus musculus with 6 samples.

Results

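The 9 genes described here are the corticosteroid receptors Nr3c1 and Nr3c2, the glucocorticoid targets Fkbp5, Tsc22d3, Zbtb16 and Sgk1, and the metallothioneins Mt1, Mt2 and Mt3. They were taken by symbol from the 24411 genes counted, with no threshold on a measured value, though earlier results of these data were known when they were chosen. All 9 were counted and tested. The libraries are bulk RNA-seq of mouse tissue at postnatal day 18, 3 of them from the wild type (WT) and 3 from mice with the Atoh7 Large Enhancer KO (enhancer KO), a deletion of a regulatory region of the retinal transcription factor gene Atoh7. The labels name no strain, sex, litter or zygosity and no separate animals, so p-values measure the spread between these samples. The labels' protocol says cerebellum and their tissue field says retina. Summed markers of granule neurons, the most numerous cerebellar neurons, ran from 1293 to 2431 CPM (reads scaled to library size, with TMM factors between libraries), and those of photoreceptors from 1.04 to 2.07 CPM.

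Glucocorticoids cross the blood-brain barrier and bind the glucocorticoid receptor (Nr3c1) and, with higher affinity, the mineralocorticoid receptor (Nr3c2). The receptor is held ready in the cytoplasm by HSP90 and its co-chaperones, moves to the nucleus with its ligand and binds glucocorticoid response elements. Metallothioneins are small cysteine-rich proteins that bind zinc and copper, and in brain they are best known from astrocytes. Mt1 and Mt2 respond to zinc through the factor MTF1 and also to glucocorticoids, whereas Mt3 is the brain-enriched member and responds little to either.

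Reads in genes ran from 22812075 to 40858310 per library. Atoh7, the check of the labels, had 63, 42 and 72 reads in WT and 28, 33 and 29 in enhancer KO (log2 fold change -1.41, edgeR adjusted p = 0.000353). Reads lying outside annotated exons made up 32.4% ± 1.56 of all reads in WT and 17.4% ± 0.735 in enhancer KO (SD, n = 3, exact two-sided permutation p = 0.1, the smallest that 3 against 3 allows). WT replicate 1 alone had high Xist (1054 CPM, against 0.743 to 1.37 CPM elsewhere) and no Ddx3y reads, where the others had 1916 to 4405. By these sex-linked genes it was the only library with a female pattern, so sex was not balanced between the groups. In WT replicate 2 12.9% of gene reads fell on Rn45s, a ribosomal RNA gene, and 20.4% of its reads were unmapped. Of 15846 genes tested, 2120 rose and 2844 fell. Lower genes made up 57.3% of these calls, 43.8% with library size alone and 41.6% after removal of a trend over gene structure.

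Of the 9 genes, 6 rose in enhancer KO at an edgeR adjusted p under 0.05, namely Mt1, Mt2, Mt3, Fkbp5, Tsc22d3 and Zbtb16. Across all genes tested 31.3% were called, 13.4% as higher. None of the 9 was lower by edgeR, at an unadjusted p under 0.05 as well (0 genes), or by DESeq2 (0 genes). In 7 of the 9 every enhancer KO library lay above every WT library, a pattern held by 20.5% of all genes tested. The median log2 fold change of the 9 was 0.32, and that of all genes tested was 0.00059. The middle 90% of all genes lay between log2 fold changes of -0.66 and 0.38. Zbtb16, Mt1, Fkbp5 and Mt2 lay above this range, Mt2 by a margin far smaller than its standard error. The changes were nevertheless small in absolute terms, from 1.15-fold for Tsc22d3 to 1.51-fold for Zbtb16 among those called. With a required fold of 1.2 only Mt1 and Zbtb16 passed.

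**Figure D1:**
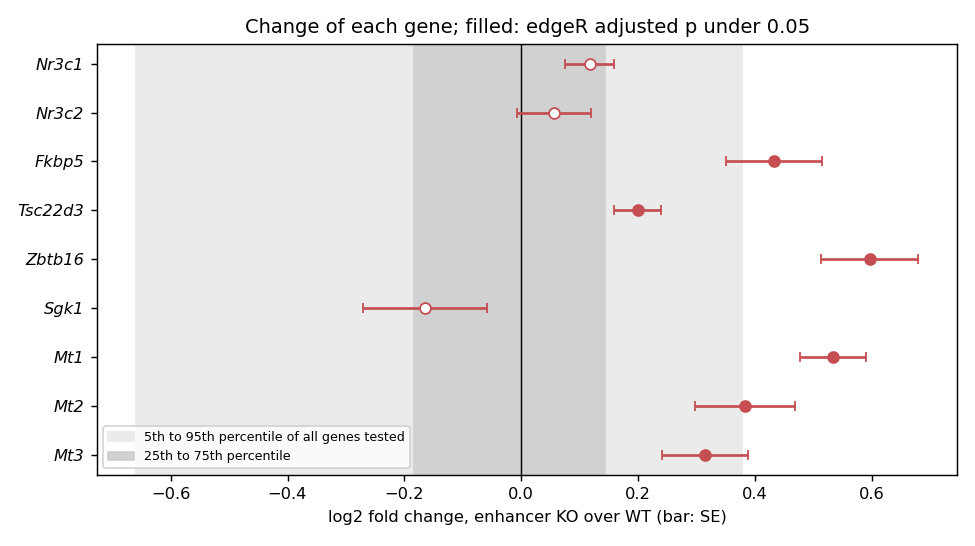
Log2 fold change of each gene (x axis, enhancer KO over WT) with its standard error, filled where the edgeR adjusted p was under 0.05. Grey bands hold the middle 90% and the middle 50% of all genes tested. Fkbp5, Mt1 and Zbtb16 sit to the right of the wider band at 0.43, 0.53 and 0.60. Mt2 lies just past its edge at 0.38, and Sgk1 alone sits left of 0.

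Levels between genes can be compared only per transcript length, here as CPM per kb of the longest principal transcript. All annotated exons of a gene together can be longer, at 1246 against 549 bases for Mt1 and 1066 against 536 for Mt3. For Mt2 they hold 588 against 511 bases, and for Fkbp5 9468 against 3858. For Sgk1 they hold 4903 against 2456 bases, and for Nr3c1 7684 against 6436. The order of the metallothioneins, that of Sgk1 and Nr3c1, and the places of Fkbp5 and Zbtb16 therefore depend on the length chosen. Per kb of principal transcript Mt3 and Mt1 were the highest in WT, at 294 ± 27.3 and 292 ± 23.6 CPM per kb (SD, n = 3), and did not differ beyond their spread. Mt2 followed at 165 ± 21.0, then Tsc22d3 at 66.6 ± 2.21, Sgk1 at 27.1 ± 2.65 and Nr3c1 at 19.6 ± 0.782 CPM per kb. Fkbp5 (4.67 ± 0.255) and Nr3c2 (4.65 ± 0.137) could not be ordered, and Zbtb16 was the lowest at 2.85 ± 0.321 CPM per kb. In enhancer KO the order differed in that Mt1 (422 ± 15.8) lay above Mt3 (366 ± 27.3) in all 3 libraries. Fkbp5 (6.32 ± 0.648) then lay above Nr3c2 (4.84 ± 0.315), also in all 3 libraries. Mt4, the metallothionein gene of squamous epithelia, had 0 reads in every library.

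**Figure D2:**
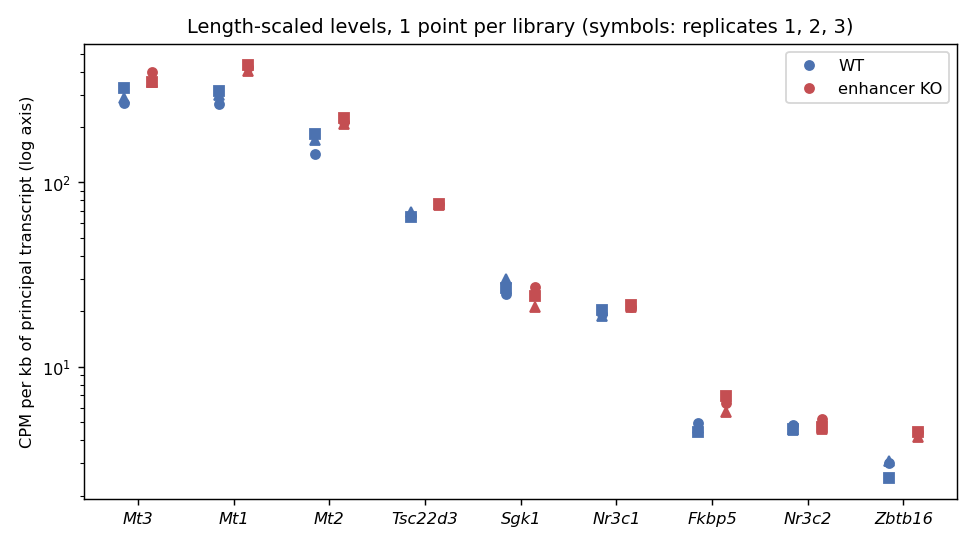
CPM per kb of principal transcript (y axis, log scale) for each gene, 1 point per library, WT in blue and enhancer KO in red. The metallothioneins occupy the top of the range, and Fkbp5, Nr3c2 and Zbtb16 the bottom, all 3 under 10 CPM per kb in every library.

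Neither receptor passed the test. Nr3c1 lies on chromosome 18 at 39410545 to 39519421 of mm10, minus strand. Its level was 125, 131 and 122 CPM in WT replicates 1, 2 and 3 and 136, 138 and 136 CPM in enhancer KO replicates 1, 2 and 3. The 3 enhancer KO libraries were close together and all above WT, by a margin of a few CPM over WT replicate 2. The log2 fold change of Nr3c1 was 0.12 ± 0.0421 (SE), just short of the threshold (edgeR adjusted p = 0.0514). It passed without WT replicate 2 (log2 fold change 0.16, edgeR adjusted p = 0.0265). It also passed with RLE scaling (0.0443), no filter on low counts (0.0344), the unstranded counts (0.0246), limma-voom (0.0494) and removal of the gene structure trend (edgeR adjusted p = 0.00589, log2 fold change 0.19). It did not pass when any other single library was left out (edgeR adjusted p from 0.0713 to 0.180). Nor did it pass with library size alone (0.0626), with replicate number as a block (0.0548) or with the required fold of 1.2. DESeq2 did not call it either (adjusted p = 0.0516). Nr3c1 therefore stands at the threshold.

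Nr3c2 lies on chromosome 8 at 76899442 to 77245012, plus strand. It had 28.4, 27.2 and 26.9 CPM in WT and 30.7, 27.9 and 27.2 CPM in enhancer KO, and the groups overlapped. Its log2 fold change of 0.06 ± 0.0633 (SE) did not pass (edgeR adjusted p = 0.545). Within a library, Nr3c1 reads outnumbered Nr3c2 reads by 4.58 ± 0.233 to 1 in WT and 4.79 ± 0.319 to 1 in enhancer KO (SD, n = 3), again with overlap.

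Among the targets, Zbtb16 rose the most and Sgk1 did not rise. Zbtb16, a zinc finger transcription factor also called PLZF, lies on chromosome 9 at 48654297 to 48836222, minus strand. It had 15.3, 12.7 and 15.7 CPM in WT, from 497, 260 and 531 reads, and 22.7, 22.7 and 21.2 CPM in enhancer KO, from 853, 874 and 884 reads. The groups were well apart, WT replicate 2 being the lowest library. The log2 fold change of Zbtb16 was 0.60 ± 0.0831 (SE, edgeR adjusted p = 0.000265).

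Fkbp5 encodes a co-chaperone that binds HSP90 and lowers the affinity of the receptor for its ligand, a feedback arm of the pathway. It lies on chromosome 17 at 28399094 to 28517527, minus strand. Its level was 19.1, 17.1 and 17.8 CPM in WT and 24.4, 26.9 and 21.9 CPM in enhancer KO. Every enhancer KO library was above every WT library, with replicate 2 the highest and replicate 3 the nearest to WT. The log2 fold change of Fkbp5 was 0.43 ± 0.0823 (SE, edgeR adjusted p = 0.00202), a 1.35-fold rise. Per 100 Nr3c1 reads of the same library there were 15.3, 13.0 and 14.7 Fkbp5 reads in WT and 17.96, 19.4 and 16.2 in enhancer KO. This ratio needs no scaling between libraries, and its groups did not overlap either, though no test was made of it.

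Tsc22d3 encodes the leucine zipper protein GILZ, known for its part in the anti-inflammatory action of glucocorticoids. It lies on chromosome X at 140539528 to 140600659, minus strand. It had 131, 127 and 136 CPM in WT and 152, 152 and 149.7 CPM in enhancer KO. The enhancer KO libraries were nearly equal, and WT replicate 1, the library with high Xist, lay between the other WT libraries. Tsc22d3 rose 1.15-fold (log2 fold change 0.20 ± 0.0404, SE, edgeR adjusted p = 0.00292).

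Sgk1 encodes a kinase that acts on ion channels and transporters and is a target of both receptors. It lies on chromosome 10 at 21882184 to 21999903, plus strand. Its level was 60.8, 65.3 and 73.6 CPM in WT and 66.9, 59.8 and 51.8 CPM in enhancer KO. The groups overlapped, and the range within each was wider than the distance between their means. Its log2 fold change of -0.17 ± 0.106 (SE) did not pass (edgeR adjusted p = 0.289). It stayed negative in every alternative run, from -0.24 without enhancer KO replicate 1 to -0.0099 without WT replicates 2 and 3. Set against Tsc22d3 in the same library, Sgk1 had 0.465, 0.513 and 0.541 reads per Tsc22d3 read in WT and 0.441, 0.394 and 0.346 in enhancer KO, with no overlap and no test made. Tsc22d3 was itself called higher, which lowers this ratio, so its separation is not a separation of Sgk1.

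**Figure D3:**
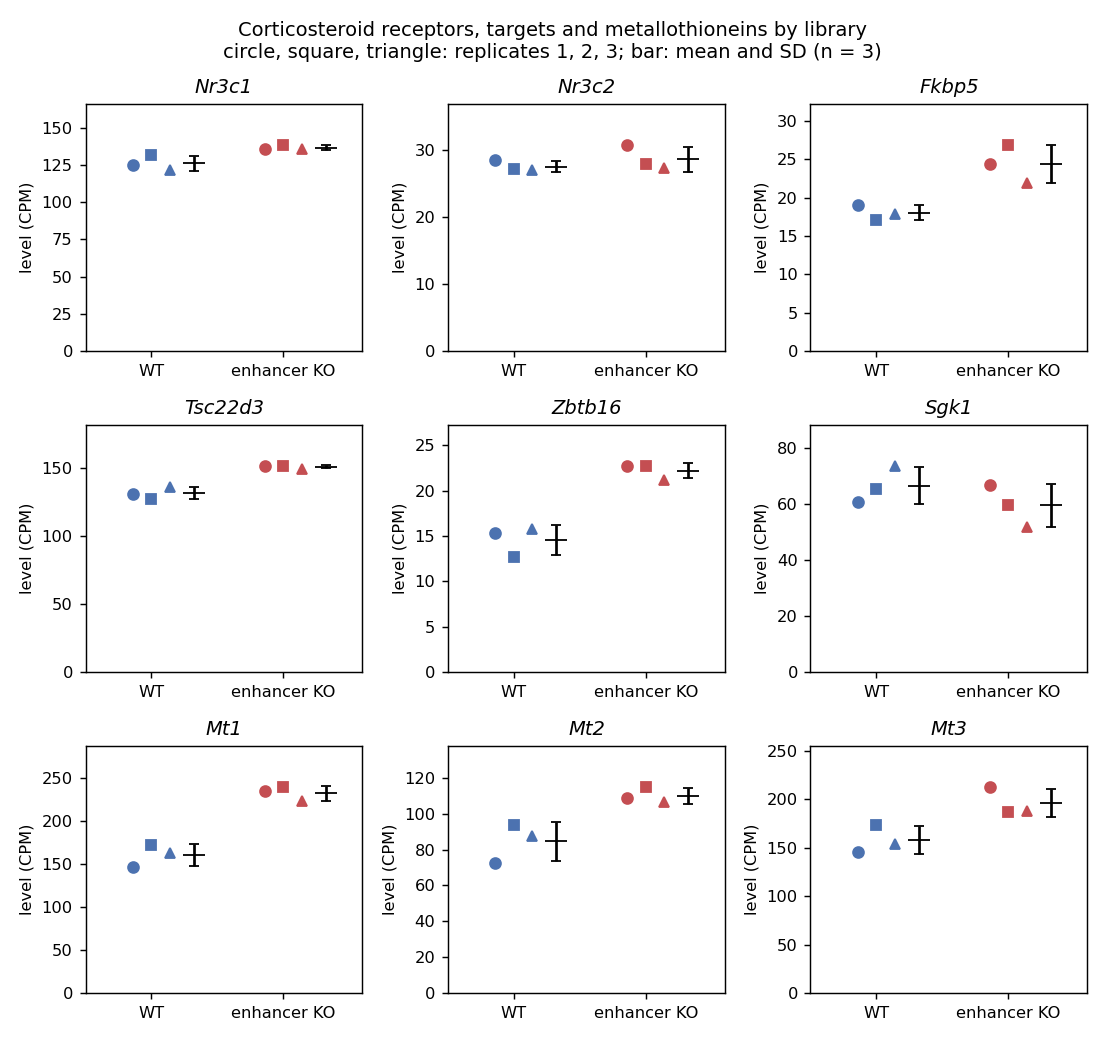
Level of each gene (y axis, CPM, from 0) by group, 1 point per library with symbols for replicates 1, 2 and 3, and the mean with its SD (n = 3) beside them. For Nr3c2 and Sgk1 the groups overlap, and for the other 7 genes all enhancer KO libraries lie above all WT libraries.

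One window before a listed start of Sgk1 held a full glucocorticoid response element, and it is shown as the sequence the receptor is known to read. Sequences are the 250 bases before starts listed by RefSeq on GRCm38.p6, the same coordinates as mm10. Of the 9 genes 7 are in that table, and Nr3c1 and Zbtb16 are not. The motif searched was GNACA and TGTNC with any 3 bases between them, which reads the same on both strands. Of 32841 windows of this length, 127 (0.387%) held it. The Sgk1 window lies at chr10:21993640-21993889, plus strand, and its listed start is 776 bases before that of the principal transcript. Capitals mark the motif, and none of the other 5 Sgk1 windows held it.
Sgk1: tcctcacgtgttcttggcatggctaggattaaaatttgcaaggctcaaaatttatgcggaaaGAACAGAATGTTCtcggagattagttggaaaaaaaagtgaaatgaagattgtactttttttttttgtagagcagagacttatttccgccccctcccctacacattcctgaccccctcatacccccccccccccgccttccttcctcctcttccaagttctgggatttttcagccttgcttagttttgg
The windows of Fkbp5, Tsc22d3 (3 starts), Nr3c2, Mt2 and Mt3 held no such match, which says only that these letters are not in those windows.

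The metallothioneins lie side by side on chromosome 8, plus strand, Mt3 at 94152607 to 94154146, Mt2 at 94172664 to 94173568 and Mt1 at 94179082 to 94180327. All 3 rose. Their reads can be told apart: no run of 50 bases of the annotated Mt1 or Mt3 transcripts occurs in another annotated gene. Of the runs in Mt2, 45.85% are shared, all with the antisense gene Gm45774, and the counts used are by strand. The Mt genes had at most 11 reads on the opposite strand in any library.

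Mt1 had 146, 172 and 163 CPM in WT replicates 1, 2 and 3, from 4741, 3515 and 5503 reads. In enhancer KO it had 234, 239 and 222 CPM, from 8798, 9204 and 9275 reads. The lowest enhancer KO library lay well above the highest WT library. The log2 fold change of Mt1 was 0.53 ± 0.0564 (SE, edgeR adjusted p = 5.16e-05), a 1.45-fold rise and the smallest p among the 9 genes.

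Mt2 had 72.7, 93.6 and 87.4 CPM in WT and 109, 115 and 107 CPM in enhancer KO. It rose 1.30-fold (log2 fold change 0.38 ± 0.0852, SE, edgeR adjusted p = 0.0105). Mt3 had 145, 174 and 154 CPM in WT and 213, 187 and 188 CPM in enhancer KO, and rose 1.24-fold (log2 fold change 0.32 ± 0.0732, SE, edgeR adjusted p = 0.0109). WT replicate 1 was the lowest library for all 3 metallothioneins and WT replicate 2 the highest WT library, so their margins depend on which WT libraries are kept. Without WT replicate 1, which leaves out the library with high Xist, log2 fold changes were 0.47 for Mt1, 0.28 for Mt2 and 0.26 for Mt3, and all passed (edgeR adjusted p = 8.11e-06, 0.00092 and 0.0323). With WT replicate 1 as the only WT library, assumed to vary like the others, Mt2 was at 0.62. Mt3 lost its call without WT replicate 3 (edgeR adjusted p = 0.0513).

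The 3 genes did not rise in equal measure. Mt1 reads per Mt3 read were 1.01, 0.987 and 1.06 in WT and 1.10, 1.28 and 1.18 in enhancer KO. Mt2 reads per Mt1 read were 0.497, 0.545 and 0.537 in WT and 0.464, 0.481 and 0.479 in enhancer KO. Neither ratio overlapped between the groups, so in these libraries Mt1 gained on both neighbours, and no test was made of this. Full separation of 3 against 3 is weak evidence, since 20.5% of all genes tested lay higher in every enhancer KO library. Within groups Mt1 and Mt2 moved together: after subtracting each group's mean, their log2 CPM correlated at r = 0.97 over the 6 libraries, against 0.71 for Mt1 with Mt3 and 0.62 for Mt2 with Mt3. The points share their libraries' depth and scaling. Mt1 and Fkbp5 gave r = -0.06 on the same measure.

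Astrocyte and Bergmann glia markers were higher in the same libraries. In the list of 10 markers, 4 rose (40%, against 13.4% of all genes called higher) and 6 were not called. The summed level ran from 6802 to 6915 CPM in WT and from 7932 to 8373 CPM in enhancer KO. The marker Slc1a2 made up the largest part of that sum and of its rise, going from 3181 ± 173 to 3980 ± 112 CPM (SD). In bulk tissue more cells of a type and more RNA per cell cannot be told apart. Per 1000 CPM of these markers, Mt1 stood at 21.5, 24.8 and 23.6 CPM in WT and 27.9, 28.9 and 28.0 CPM in enhancer KO, with no overlap. Mt2 stood at 10.7, 13.5 and 12.6 against 13.0, 13.9 and 13.4, and Mt3 at 21.4, 25.2 and 22.3 against 25.4, 22.7 and 23.7, both with overlap. On this scale Mt1 alone of the 3 kept its groups apart, and no test was made of the ratios.

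**Figure D4:**
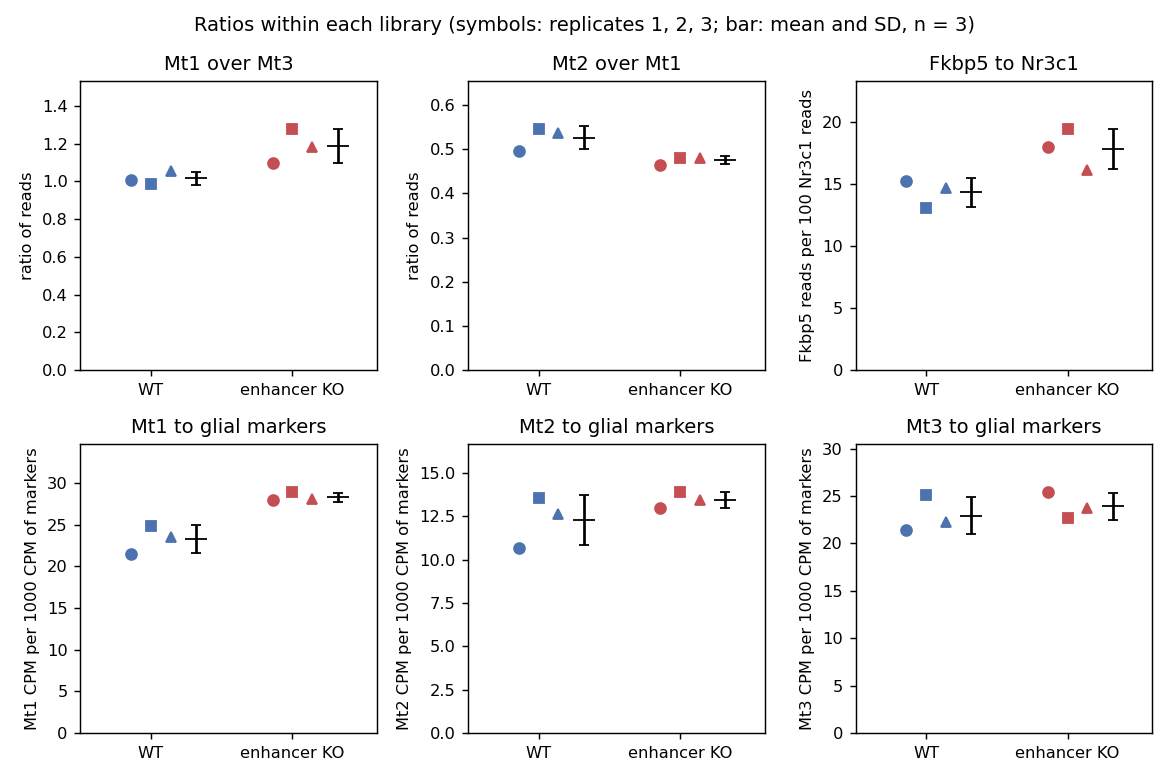
Ratios taken within each library (y axes, from 0), 1 point per library with symbols for replicates 1, 2 and 3, and the mean with its SD (n = 3). In the lower row each metallothionein is set per 1000 CPM of astrocyte and Bergmann glia markers, and the groups stay apart for Mt1 (21.5 to 24.8 against 27.9 to 28.9) but not for Mt2 or Mt3.

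The windows before the metallothionein starts are shown because Mt1 and Mt2 are known as the zinc-responsive members. Capitals mark the core of the metal response element, TGCACNC or TGCGCNC on either strand, which 21.4% of the 32841 windows held at least once and 1.26% at least 3 times. In the Mt1 window they also mark 1 match to the glucocorticoid motif given above, which does not overlap the metal core. The windows lie at chr8:94178839-94179088 for Mt1, chr8:94172368-94172617 for Mt2 and chr8:94152357-94152606 for Mt3, all plus strand.
Mt1: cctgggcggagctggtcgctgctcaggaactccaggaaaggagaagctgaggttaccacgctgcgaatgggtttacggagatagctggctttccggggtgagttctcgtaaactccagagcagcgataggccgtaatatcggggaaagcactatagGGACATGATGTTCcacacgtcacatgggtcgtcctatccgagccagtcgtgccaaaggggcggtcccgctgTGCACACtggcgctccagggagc
Mt2: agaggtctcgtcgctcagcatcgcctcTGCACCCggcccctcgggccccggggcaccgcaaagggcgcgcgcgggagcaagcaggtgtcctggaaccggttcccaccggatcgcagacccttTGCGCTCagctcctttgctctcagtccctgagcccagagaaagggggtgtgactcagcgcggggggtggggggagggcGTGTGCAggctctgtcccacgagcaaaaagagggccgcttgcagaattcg
Mt3: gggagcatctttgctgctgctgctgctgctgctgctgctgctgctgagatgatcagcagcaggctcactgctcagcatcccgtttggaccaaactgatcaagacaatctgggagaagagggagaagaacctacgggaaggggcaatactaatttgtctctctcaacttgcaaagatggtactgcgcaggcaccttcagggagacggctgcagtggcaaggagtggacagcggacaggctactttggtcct
The Mt2 window held 3 metal cores, the Mt1 window 1 and the Mt3 window 0. Other coding transcripts of Mt1 start 122 and 152 bases after the listed start, and other coding transcripts of Mt3 139 bases after it. For Mt2 the principal transcript starts 46 bases after the listed start and another 242 bases after it. The stretch just before each of these starts is therefore not in the windows compared. These matches describe the letters only, and no binding was measured.

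Of 25 other genes that glucocorticoids induce, all tested, 3 rose and 1 fell (16% called, against 31.3% of all genes tested), with a median log2 fold change of 0.07 and 15 of the 25 positive. Their summed level ran from 2302 to 2546 CPM in WT and from 2794 to 3012 CPM in enhancer KO, without overlap. Most of that sum and of its rise came from Glul and from Fam107a, a gene named after its values were seen. Fam107a went from 731 ± 145 to 926 ± 74.7 CPM (SD), with overlap, and did not pass (edgeR adjusted p = 0.191). Glul, the glutamine synthetase gene of astrocytes, had 1046, 899 and 962 CPM in WT and 1292, 1220.1 and 1223 CPM in enhancer KO and rose by 28.4% (edgeR adjusted p = 0.000464). Ddit4, an inhibitor of mTOR signalling, rose by 0.19 ± 0.0505 on the log2 scale (edgeR adjusted p = 0.0152), and Gpd1, a glycerol phosphate dehydrogenase gene, by 0.14 ± 0.0449 (edgeR adjusted p = 0.0360). The arrestin-related gene Arrdc2 fell by 0.34 ± 0.102 on the log2 scale (SE, edgeR adjusted p = 0.0253). Ddit4 lost its call without enhancer KO replicate 1 (0.0567), leaving 1 higher gene. Gpd1 did not pass when WT replicate 1, WT replicate 3, enhancer KO replicate 1 or enhancer KO replicate 2 was left out (edgeR adjusted p between 0.0724 and 0.109). Arrdc2 did not pass when replicate 1 or 2 of either group was left out (0.0595 to 0.0881), with library size alone (0.139), with DESeq2 (0.0782), with the replicate block (0.0507) or after removal of the gene structure trend (0.0630), and in the last 4 of these the list had 0 lower genes. Without enhancer KO replicate 2, 2 genes of the list were lower.

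Of the HSP90 machinery that holds the receptor, 3 of 12 genes rose (25%, against 13.4% of all genes called higher and 31.3% called either way). Ptges3, the p23 co-chaperone, went from 152 ± 3.16 to 181 ± 4.38 CPM (SD; edgeR adjusted p = 0.00054), Dnajb1, an HSP40, from 39.3 ± 2.76 to 51.0 ± 2.29 CPM (0.00066) and the HSP70 cofactor Bag1 from 63.6 ± 1.01 to 74.0 ± 5.43 CPM (0.00929). The median log2 fold change of the list was 0.08.

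The coregulators that the receptor recruits were lower, with 7 of 10 genes called (70%, against 17.9% of all genes called lower) and a median log2 fold change of -0.17. The corepressor gene Ncor1 fell by 0.24 on the log2 scale, the coactivator gene Ncoa3 by 0.28 and the acetyltransferase gene Ep300 by 0.19 (edgeR adjusted p from 0.000573 to 0.00296). All 3 kept this direction under the other scalings, but with library size alone 0 of the 10 passed by edgeR, and after removal of the gene structure trend 3 did. Ep300 was not among these, its log2 fold change being -0.07 in that fit (edgeR adjusted p = 0.235). The share of reads outside exons was lower in the same libraries (17.4% against 32.4%), and its part in this result was not tested.

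Genes of corticosteroid supply and metabolism moved both ways, with 1 higher and 3 lower of 8 tested (50% called, against 31.3% of all genes tested). Crhr1, the receptor for corticotropin-releasing hormone, had 35.0, 38.1 and 38.4 CPM in WT and 20.4, 19.1 and 23.3 CPM in enhancer KO. The groups were far apart, and the fall of 0.83 ± 0.0761 on the log2 scale (SE, edgeR adjusted p = 1.34e-05) exceeded the change of every one of the 9 genes. Srd5a1, a steroid reductase gene, had a log2 fold change of 0.21. H6pd, which supplies NADPH to the enzyme that regenerates active glucocorticoid, was at -0.24 and Abcb1a, the drug and steroid efflux pump of brain endothelium, at -0.32. Srd5a1 lost its call without enhancer KO replicate 2 (edgeR adjusted p = 0.0516). H6pd did so when WT replicate 2, WT replicate 3 or enhancer KO replicate 2 was left out (0.0563, 0.0596 and 0.0828), and Abcb1a without WT replicate 3 (0.0861), which leaves Crhr1 as the only lower gene. With library size alone neither H6pd nor Abcb1a passed (0.193 and 0.0680), and H6pd did not pass with DESeq2 (0.0656) or after removal of the gene structure trend (0.0841). Endothelial and mural markers were lower too, 5 of 9 (55.6%, against 17.9% of all genes called lower). Their summed levels were 298 to 329 CPM in WT and 240 to 281 CPM in enhancer KO, and their part in the Abcb1a result was not tested. Granule neuron markers were lower in all 8 members (100%, against the same 17.9%), from 1962 to 2431 CPM summed in WT to 1293 to 1578 CPM. Their part in the Crhr1 result was not tested.

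On the metal side, of 21 genes of zinc transport and sensing 6 rose, 1 fell and 14 did not pass. Called either way were 33.3%, close to the 31.3% of all genes tested. By direction, 6 of 21 higher stands against 13.4% of all genes called higher, and 1 of 21 lower against 17.9% called lower. The median log2 fold change of the list was 0.06. The importer genes Slc39a1, Slc39a12 and Slc39a7 had log2 fold changes of 0.28, 0.18 and 0.18 and Slc30a9 of 0.20 (edgeR adjusted p from 0.000743 to 0.00664). The lower gene, Slc30a7, named after its values were seen, had a log2 fold change of -0.16, and with replicate 2 or 3 of either group left out the list had 0 lower genes by edgeR, as with DESeq2. Of 9 copper genes 1 rose (11.1%, against 13.4% of all genes called higher), Sod1, the copper and zinc superoxide dismutase gene, whose mean went from 108 ± 4.94 to 128 ± 7.19 CPM (SD; edgeR adjusted p = 0.00371).

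Of 12 oxidative stress genes 3 rose (25%, against 13.4% of all genes called higher and 31.3% called either way), with a median log2 fold change of 0.14. They were the sulfiredoxin gene Srxn1 (0.29), the peroxiredoxin gene Prdx1 (0.19) and the quinone reductase gene Nqo1 (0.30). Nqo1 did not pass when WT replicate 1, WT replicate 3, enhancer KO replicate 1 or enhancer KO replicate 2 was left out (edgeR adjusted p between 0.0696 and 0.141), with DESeq2 (0.0797) or with the replicate block (0.0623), and without WT replicate 2 the list had 6 higher genes. Of 10 immediate early genes, which rise within minutes of neuronal activity or handling, 1 rose (10%, against 13.4% of all genes called higher). This was Fos, whose mean went from 32.3 ± 4.27 to 40.4 ± 3.31 CPM (SD; edgeR adjusted p = 0.0291), and Fos did not pass when WT replicate 1, WT replicate 2 or enhancer KO replicate 3 was left out (0.103, 0.0797 and 0.0673).

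**Figure D5:**
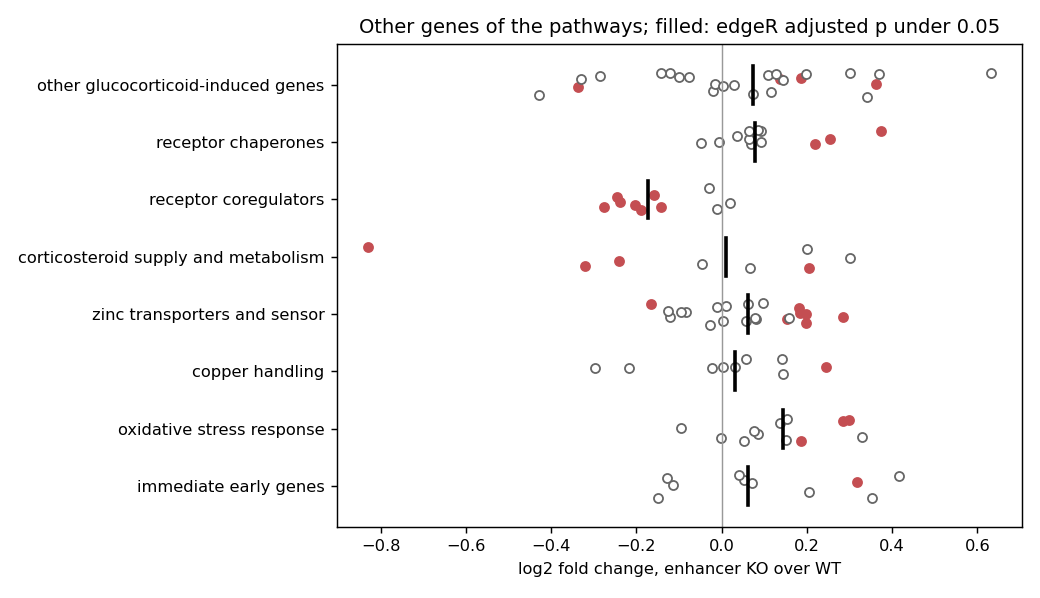
Log2 fold change (x axis, enhancer KO over WT) of every tested gene of the 8 pathway lists, filled where the edgeR adjusted p was under 0.05, with a black bar at each list's median. The coregulators lie mostly left of 0 (median -0.17), and Crhr1 is the point at -0.83.

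Markers of other cell types that could carry these transcripts were measured in the same libraries. Purkinje cell markers summed to 4206 to 5155 CPM in WT and 5948 to 6411 CPM in enhancer KO (6 of 8 higher, 75%). Microglial markers summed to 187 to 199.8 and 211 to 251 CPM (4 of 7 higher, 57.1%). Of all genes tested 13.4% were called higher. Oligodendrocyte markers (29190 to 32513 CPM in WT and 32124 to 35340 CPM in enhancer KO), choroid plexus markers (1169 to 1836 and 795 to 2006 CPM) and midbrain markers (38.0 to 48.4 and 42.9 to 54.4 CPM) overlapped between the groups. So did markers of meninges and blood (425 to 602 and 401 to 714 CPM), of which Hba-a1, Hba-a2 and Hbb-bs were listed at 0 in every library. The part of these cell types in the rise of Fkbp5, Tsc22d3 and Zbtb16 was not tested.

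Genes whose spread within groups was most like that of the Mt1 and Mt2 sum, and of Fkbp5, were sought among 10301 genes of at least 10 CPM, again with each group's mean subtracted. For the sum of Mt1 and Mt2 these were Clic1, Slc4a4 and Lxn (r = 0.999, 0.997 and 0.991 over 6 libraries). For Fkbp5 they were Col16a1, Vcam1 and Chadl (r from 0.998 to 0.999). With 6 libraries such values are common: 89 genes exceeded r = 0.95 for the metallothionein sum and 51 for Fkbp5, and the libraries share depth and scaling.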

How the data were processed

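The submitters' processing notes name Trimmomatic, STAR and mm10; which annotation was counted is not stated there. Each deposited table holds the authors' raw read counts by gene symbol, unstranded and for either strand. The column used, the fourth, held all but 1.62% to 1.88% of the stranded reads. The 4 rows that name no gene (35.9% to 61.9% of reads, unmapped ones included) were left out.

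Genes were kept by filterByExpr (15846 of 24411), scaled by TMM and compared by the quasi-likelihood test of edgeR 4.0.16 (R 4.3.3; robust, two-sided), with p-values adjusted by Benjamini-Hochberg across the tested genes and called under 0.05. Its SE was derived from the F statistic. The alternatives include DESeq2 1.42.0, limma-voom (limma 3.58.1) and a trend over intron length, exon length and GC content fitted by mgcv 1.9.3. The test was checked on simulated counts, where it made clearly more false calls than its threshold states and missed most changes as small as the smaller ones reported here. Positions and lengths came from GENCODE M21 (mm10), which matched 23334 symbols, and sequences from RefSeq (GRCm38.p6).

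All 9 genes are named. Marker lists are given as counts and sums, and Slc1a2 was named from them after its values were seen. Each pathway list gives up to 4 called genes with the smallest adjusted p. One gene that this rule names is not reported here. Genes and lists were chosen with earlier results of these data known.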

Additional observations from a re-analysis of the deposited data

How the results depend on the processing

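The 6 higher genes of the 9 numbered 5 to 7 over the 6 fits that left out 1 library each, and 2 with a minimum fold of 1.2, under which Fkbp5, Tsc22d3, Mt2 and Mt3 lost their calls (edgeR adjusted p = 0.102, 1.0, 0.276 and 0.572). None of the 9 changed sign under any of the 16 alternatives. Over all genes, the minimum fold left 83 higher and 908 lower, library size alone 1689 lower, and the fit without WT replicates 2 and 3 left 1640 lower. Over all pathway lists, 18 genes were higher and 12 lower. The minimum fold left 0 higher (edgeR, 2 at an unadjusted p under 0.05, 17 by DESeq2 with no minimum) and 1 lower, and library size alone left 1 lower. Removing the trend over gene structure left 5 lower, and leaving out WT replicates 2 and 3 left 6 lower. These last 2 alternatives were chosen after seeing the data. With replicate number as a block, 6 of the 9 genes were higher. Same-numbered libraries correlated at 0.0517, -0.0324 and -0.0599 after subtracting group means. No pairing by number was seen, though 3 libraries per group are too few to exclude it. The fewest reads behind a member were 260, for Zbtb16 in WT replicate 2.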
